A study of Mus musculus with 22 samples.

Results

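The data compare a tumour cell fraction with the organ the tumour grew in. A2C12 is a cell line from a lung tumour of a mouse that carried both a c-myc and a c-raf transgene on the C57BL/6 background, and its side population is the fraction of cells that keeps out the DNA dye Hoechst 33342. Cells were stained with 5 µg/ml of the dye for 90 min and the dye-excluding cells were sorted by flow cytometry. The group called untreated here holds 3 preparations of these sorted cells that received no antibody, which the labels call biological replicates. The control group is lung tissue of non-transgenic C57BL/6 mice, 8 arrays labelled male and 8 labelled female, pooled as 16 lung arrays. These 19 of the 22 samples of the series entered the comparison. The other 3 are side population cells treated with an antibody against EpCAM and are not part of the comparison, though their arrays were scaled with the others and entered the choice of 1 probe set per gene. All 45037 probe sets that are not array controls, of 45101 on the array, were members, and they were read as 18193 genes with 1 probe set each. The ages of the mice, the number of mice behind each lung sample and the promoters of the transgenes are not given in the sources used here. The cells are 1 line, so the p-values below measure the spread between 3 preparations and between 16 lungs, not between tumours.

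A side population forms because transporters of the ABC family pump the dye out, and the assay is used to enrich cells with drug efflux or stem-like properties. MYC is a transcription factor that drives growth, ribosome production and cell division, and RAF kinases feed the MEK-ERK cascade that relays mitogenic signals. Lung tissue is a mixture: alveolar type 1 cells for gas exchange, surfactant-making alveolar type 2 cells, club and ciliated cells of the airways, a dense bed of endothelium, fibroblasts, smooth muscle and resident or circulating leukocytes. In such bulk samples fewer cells of a type and less RNA per cell cannot be told apart. Unsorted A2C12 cells were not among the samples, and how dye-excluding cells differ from the others of the line was not measured.

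Levels below are deposited PLIER intensities on a linear scale, and changes are differences of log2(intensity + 16) after quantile normalization, untreated cells minus lung, so that 1 unit is 2-fold. A gene or probe set was called when its limma adjusted p was under 0.05 and its change at least 2-fold, and only called genes are said to have risen or fallen. The 40th percentile of an array lay between 24.9 and 33.7, and differences among readings below that are not interpreted. Arrays of untreated cells correlated across probe sets at 0.981 to 0.985 and lung arrays at 0.968 to 0.993, where probe sets are not independent replicates. Hybridization controls such as BioB-5 overlapped between the groups (199 to 256 in untreated cells, 86.5 to 249 in lung). The poly-A control transcripts that are added to RNA before labelling did not: Dap-3 read 551 to 601 with the cells and no more than 2.72 with lung. For the Gapdh control, the 3' probe set over the 5' one gave a log2 ratio of -0.13 to 0.07 in untreated cells and 0.22 to 1.02 in lung, whereas that of the Actb control overlapped (0.25 to 0.86 and 0.28 to 0.90). Any difference in RNA handling between the groups and the difference between cells and lung therefore cannot be told apart. The lung samples labelled male 3 and male 4 carried the X-inactivation transcript Xist (1512 to 1583, against 12.7 to 24.0 in the other male-labelled lungs and 1225 to 1951 in the female-labelled ones) and lacked the Y-linked Uty (8.27 to 9.46, against 722 to 1253). They stayed in the pooled control, and results without them are given beside the total counts. The 3 untreated preparations also carried Xist, at 2443, 2082 and 2263, with Uty at 4.45, 4.24 and 12.1.

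Many transcripts differed in both directions, and the deep changes were mostly losses. Of 32533 probe sets above the filter, 6527 (20.1%) were called higher and 6401 (19.7%) lower, 39.7% in either direction and 39.0% with groups that did not overlap as well. Read as genes, 2648 of 15184 tested (17.4%) rose and 3579 (23.6%) fell, 41.0% in either direction, and the median change over all genes was 0.01. Without the lungs labelled male 3 and male 4 these counts were 2669 and 3615. The balance depended on how arrays were scaled: 42.5% of called genes were higher after quantile normalization, 35.0% without normalization and 48.3% after median centring. Beyond 4 log2 units 74 genes rose and 551 fell, and beyond 6 units 4 rose and 132 fell. The groups did not overlap in 65.6% of genes, and 40.3% were both called and without overlap. Of the 57 gene lists described below, which hold 1031 tested genes, 272 genes rose, 432 fell and 327 did not pass. The counts of each list are to be read beside the 17.4% higher and 23.6% lower over all tested genes. Members named because they ran against their list, did not pass or have a role of interest were chosen after their values were seen.

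**Figure D1:**
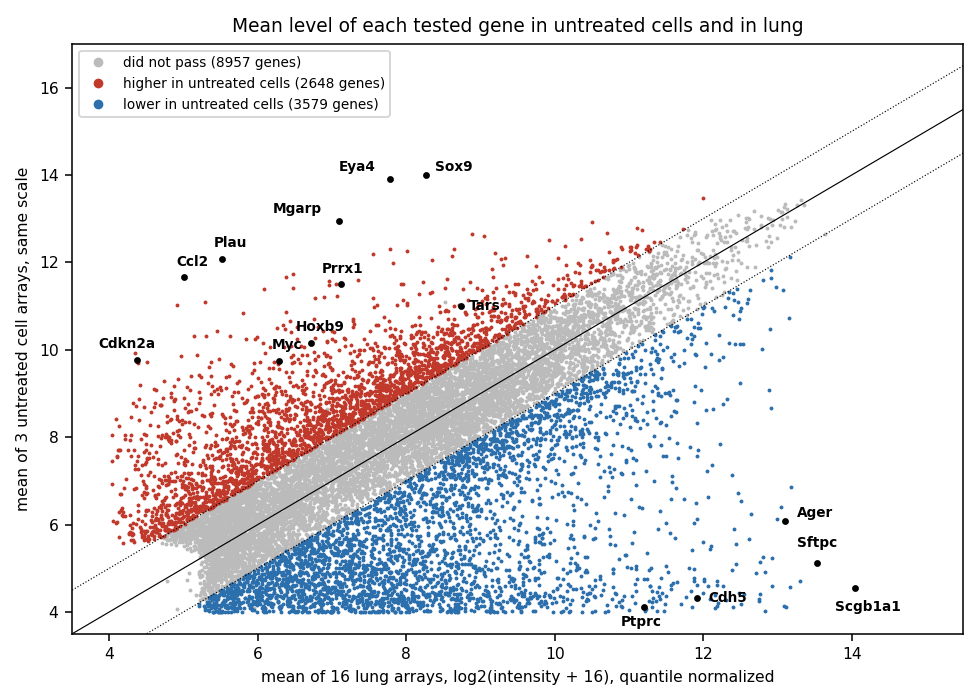
Mean log2(intensity + 16) of each of 15184 tested genes on 3 untreated cell arrays (vertical) against 16 lung arrays (horizontal), quantile normalized. The solid line marks equal levels and the dotted lines a 2-fold difference, red points are the 2648 genes called higher in untreated cells and blue points the 3579 called lower. Sox9, Eya4 and Mgarp lie at the top of the vertical axis, and Scgb1a1, Sftpc and Ager at the lower right, high in lung and near the floor in the cells.

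The transcripts that mark the epithelial cells of the lung were mostly far lower in the sorted cells, and some were nearly absent. Scgb1a1, which encodes the main secretory protein of club cells, read 15.7, 0.00988 and 5.72 on the untreated arrays and 11638 to 14221 (median 13465) in lung. Sftpc, the surfactant protein that marks alveolar type 2 cells, read 9.46, 22.1 and 18.2 and, in lung, 9934 to 11940.0 (median 10592). Ager, the receptor that marks alveolar type 1 cells, was at 36.7, 50.9 and 42.7 in the cells and 5921 to 9882 (median 9488) in lung. For all 3 genes every untreated array lay far below every lung array. The changes were -9.49 ± 0.13 (SE), -8.40 ± 0.15 (SE) and -7.01 ± 0.11 (SE) (limma adjusted p = 5.09e-25, 4.87e-23 and 4.23e-24). All 12 tested club and secretory markers fell, with a median of -7.23, among them Scgb3a2 (-8.94) and the naphthalene-activating enzyme gene Cyp2f2 (-9.00). All 13 alveolar type 2 markers fell as well (median -7.55), including Abca3, a lipid transporter of surfactant storage, which read 248, 273 and 319 against a lung median of 2539. A second probe set of the type 2 protease gene Napsa did not pass (0.67, against -5.82 for the one chosen). Alveolar type 1 markers fell in 11 of 12 (median -4.13). The exception was Pdpn, the mucin-like protein podoplanin, which read 1589.7, 1378 and 1036 in the cells and 1499.5 to 2016 (median 1754) in lung, a change of -0.44. The summed type 1 marker level was 7245 to 7592 in the cells and 42182 to 52920.4 in lung. Pdpn was only a part of that sum in the cells, so other type 1 markers were still read there.

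Airway cells with cilia showed the same direction with more exceptions. Of 14 tested ciliated markers 12 fell (median -3.31). Foxj1, the factor that sets up motile cilia, read 19.5, 16.8 and 12.9 in the cells against 327 to 973 (median 869) in lung, without overlap. Sec14l3 and the dynein light chain gene Dynlrb2 changed by -7.61 and -6.01. Rfx3 (-0.14) and Dnah5 (-0.51) did not pass. Basal cell markers were low in lung too: 2 of 8 stayed below the filter, 2 of 6 tested fell and the others did not pass. Only 3 of 9 neuroendocrine markers were above the filter. Of these the synaptotagmin gene Syt13 read 921, 962 and 594 in the cells and 0.00424 to 11.2 (median 5.98) in lung and rose by 5.31.

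Vessel and several blood cell marker lists were lower without exception. All 15 endothelial markers fell (median -6.08), and their summed level was 366 to 434 in the cells and 23232 to 43065 in lung. Cdh5, the cadherin of endothelial junctions, read 3.41, 0.123 and 5.99 on the untreated arrays and 2583 to 4616 (median 3752) on the lung arrays, a change of -7.59 ± 0.13 (SE). The pan-leukocyte phosphatase gene Ptprc (CD45) read 0.862, 0.0456 and 1.33 and, in lung, 1899 to 2684 (median 2297). Neither gene overlapped between the groups, and both read below the 40th percentile on every untreated array. A second Ptprc probe set did not pass (-0.44). All 10 pan-leukocyte, 14 macrophage and monocyte, 10 neutrophil and 3 red cell markers fell. The red cell list had a probe set for only 4 of 8 genes, and Hba-a1 was dim in lung too (41.2 to 65.2). Other Slc4a1 probe sets gave 0.79, not called, and -2.55, called lower. T and natural killer cell markers fell in 11 of 13, with Cd4 (-0.26) and Prf1 (0.38) not passing. B and plasma cell markers fell in 9 of 10, with Ighm (-8.45) and Jchain (-8.04) lowest. The exception was Pax5, which rose by 1.14 from a low level (46.2, 63.8 and 63.9 against 14.7 to 33.5 (median 24.0)), while its other tested probe set did not pass (0.29). Mast cell and basophil markers went both ways: the receptor gene Kit (-4.82) and the factor gene Gata2 (-2.96) were among 3 that fell, and the protease genes Mcpt8 (2.03) and Cpa3 (1.26) rose, the latter not with an offset of 64.

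Stromal markers fell except for a few. Among 14 fibroblast and lipofibroblast markers 13 fell (median -5.12), led by the methyltransferase gene Inmt (-8.34), Limch1 (-7.66) and the lung mesenchyme factor gene Tcf21 (-7.44). Col14a1, a fibril-associated collagen, rose by 1.89. Smooth muscle and pericyte markers fell in 10 of 13, with the contractile genes Tagln (-6.31), Myh11 (-5.72) and Cnn1 (-5.35) lowest. Acta2, smooth muscle actin, read 4886, 2966 and 3518 in the cells and 3546 to 6655 (median 5444) in lung and did not pass (-0.63). The pericyte gene Rgs5 read 1470.3, 1493 and 641 in the cells and 122 to 408 (median 297) in lung, without overlap, and rose by 2.03. Mesothelial markers fell in 5 of 8, while Wt1 (0.68) and Krt19 (-0.37) did not pass.

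**Figure D2:**
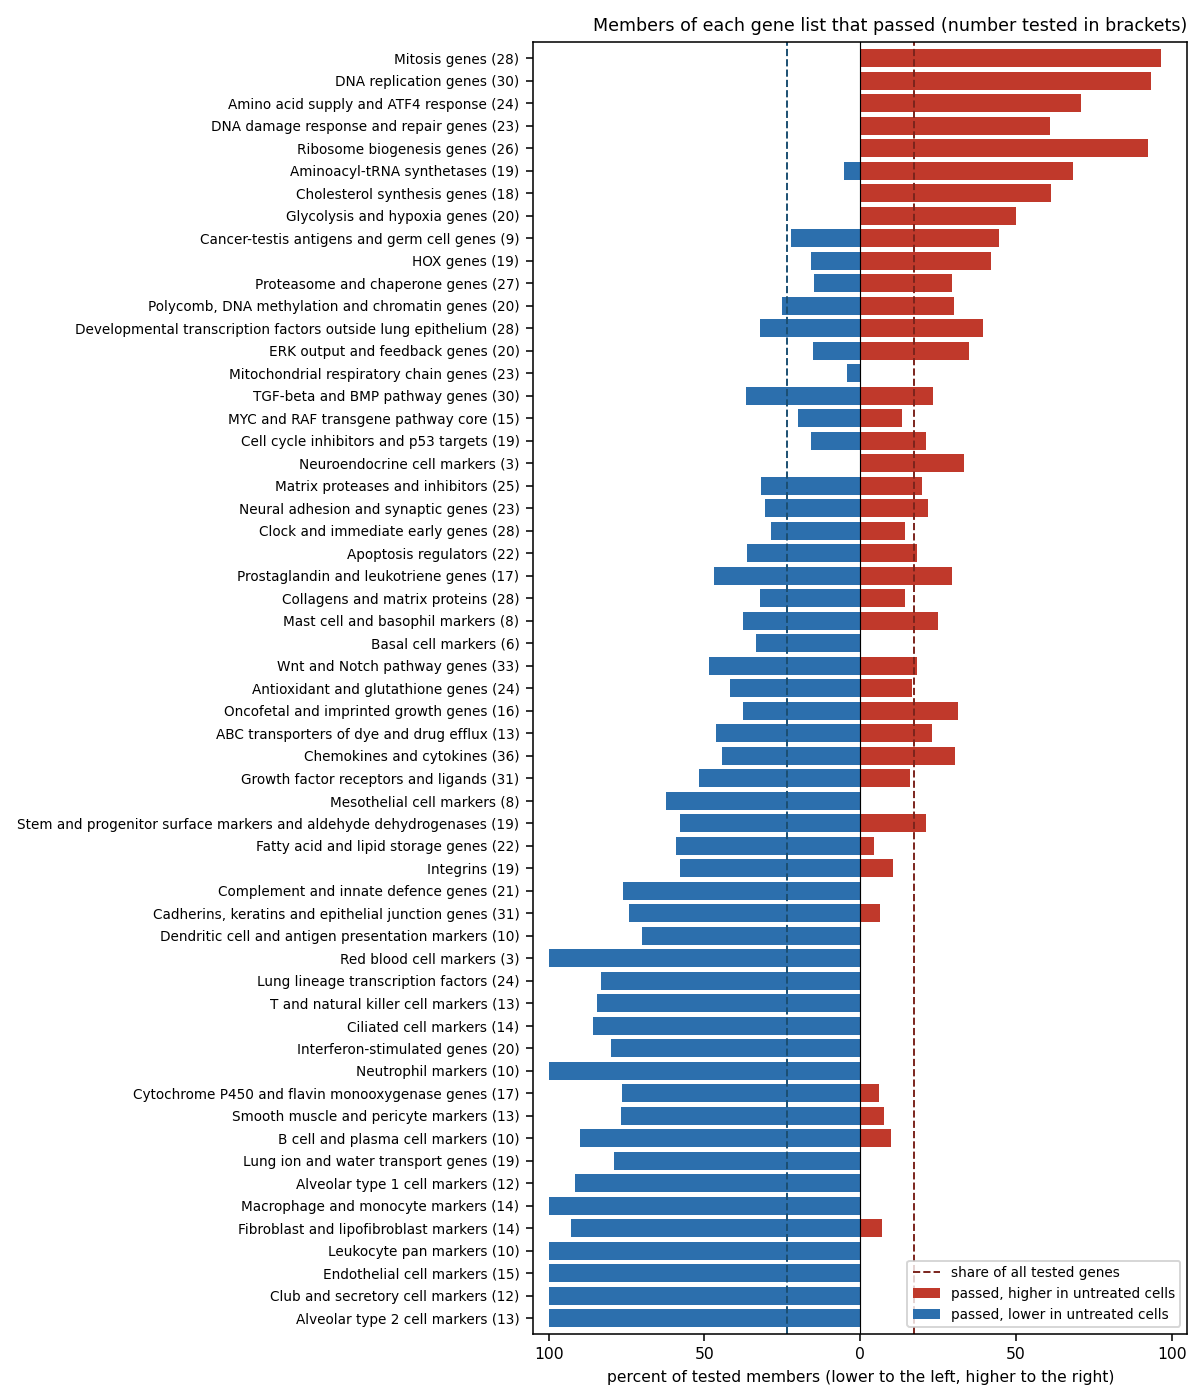
Share of the tested members of each of 57 gene lists that were called higher (red, to the right) or lower (blue, to the left) in untreated cells than in lung, ordered by the median change of the list. The dashed lines mark the shares over all 15184 tested genes, 17.4% higher and 23.6% lower. Mitosis and DNA replication lists have over 90% of members higher, and the alveolar type 2, club and endothelial marker lists have every tested member lower.

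Most epithelial adhesion and keratin transcripts were lower in the cells. Epithelial junction, cadherin and keratin genes fell in 23 of 31 (median -2.59, beside 0.01 over all genes). Their summed level was 21838 to 22798 in the cells and 42526 to 55701 in lung, so some members stayed high. Cdh1, E-cadherin of epithelial junctions, read 104, 71.0 and 146 in the cells and 1838 to 3817 (median 3090.2) in lung. Krt18, a keratin of simple epithelium, was at 108, 32.6 and 49.3 in the cells, below its lung range of 1058 to 4018. Epcam, the adhesion protein that the antibody of the series targets, read 0.103, 5.80 and 3.66 and, in lung, 644 to 1617 (median 770.1). In all 3 genes the untreated arrays lay below the lowest lung array. The changes were -4.47 ± 0.15 (SE), -4.74 ± 0.25 (SE) and -5.36 ± 0.20 (SE) (limma adjusted p = 7.1e-18, 4.69e-14 and 9.15e-17), but a second Epcam probe set, of the cross-hybridizing type, did not pass at 0.74. Cdh2, the N-cadherin of neural and mesenchymal cells, went the other way, at 1523, 2120.1 and 2022 in the cells and 17.0 to 76.3 (median 41.5) in lung, and rose by 5.03 ± 0.19 (SE) (limma adjusted p = 4.67e-17). The desmosomal plakophilin gene Pkp1 was the other member that rose (2.64). Vim, the intermediate filament of mesenchymal cells, read 9009.9, 9919 and 9737 against 4569 to 6115 (median 5566) and did not reach 2-fold (0.63).

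The transcription factors of the lung lineages were mostly lower in the cells. None of 24 tested factors rose and 20 fell (median -2.92). Foxa1, which opens chromatin in endodermal organs, read 0.0133, 4.66 and 0.00864 in the cells and 1064 to 1553 (median 1297) in lung. Sox2 of the conducting airways read 0.00181, 2.46 and 0.00759 against 306 to 786 (median 606), and Tbx4 of the lung mesenchyme 5.03, 0.0133 and 1.32 against 740.1 to 1249 (median 1048). All 3 were without overlap, with changes of -6.22, -5.05 and -5.79. Foxa2, the close relative of Foxa1, was at the lung level instead, at 707, 617 and 491 against 465 to 725 (median 631) (change -0.03). Nkx2-1, the master regulator of lung epithelium, fell by 1.09 from a modest lung median of 56.1 to 10.5, 13.9 and 18.4. Gata6 (-2.39), the C/EBP gene Cebpa (-4.85) and the grainyhead gene Grhl2 (-2.85) fell too, although the other 3 tested Grhl2 probe sets did not pass.

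Some factors of other developing tissues gave very strong signals in the cells, for Sox9 and Eya4 on 1 probe set each. Sox9, which acts in cartilage, in the distal tips of the embryonic lung and in other progenitors, read 35363, 30784 and 23810.5 on the untreated arrays. Its lung readings were 220.0 to 478 (median 307), so that the lowest cell array stood far above the highest lung array. Eya4, a coactivator and phosphatase known from the inner ear and heart, read 33176, 26334 and 28039 in the cells and 129.7 to 314 (median 207) in lung. The changes were 5.73 ± 0.19 (SE) and 6.13 ± 0.21 (SE) (limma adjusted p = 8.33e-18 and 1.03e-17). The other tested probe sets of Sox9 gave 4.83 and 4.77, and those of Eya4 1.68 and 2.82. Their levels in the cells were far lower, with means of 648 and 655 for Sox9 and 43.7 and 112 for Eya4. Prrx1, a homeobox factor of limb and facial mesenchyme, rose by 4.37 to 2986, 2792 and 3295. The distal-less genes Dlx2 (3.83) and Dlx1 (2.90), the LIM factor gene Lhx9 (3.81) and the mesenchymal factors Twist1 (3.45), Twist2 (2.40) and Snai2 (2.11) rose as well. In all 11 of 28 such factors rose and 9 fell (median 0.41). Rises no longer outnumbered falls without normalization or with a 60th percentile filter. Those that fell included other members of the same families: Eya2 (-3.15), Eya1 (-1.71), Sox11 (-2.26), Zeb1 (-1.85) and Zeb2 (-1.29). Sox4 (0.29), Six2 (0.34) and Six4 (0.07) did not pass. For Eya1 another probe set was called higher (1.28).

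HOX genes mark position along the body axis and normal lung carries the anterior and central members. Of 28 with a probe set 9 stayed below the filter, 8 of 19 tested rose and 3 fell. Hoxb9 read 1404, 1086 and 986 in the cells and 23.7 to 247 (median 103) in lung. Hoxb13, a posterior gene of prostate and hindgut, read 62.1, 56.8 and 46.3 against at most 6.13 on any lung array. Hoxa5, which the lung needs to form, was lower, at 321, 455 and 318 against 771 to 1803 (median 1432). None of the 3 overlapped between groups, and their changes were 3.44, 2.20 and -1.81. The change of Hoxb13 was 0.99 with an offset of 64, under the 2-fold limit, and a second Hoxa5 probe set did not pass (-0.15). Neighbours in the HoxB cluster differed, since Hoxb6 (2.12), Hoxb3 (1.73) and Hoxb2 (1.71) rose, Hoxb5 (-1.39) fell and Hoxb4 (0.51) and Hoxb7 (0.54) did not pass.

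**Figure D3:**
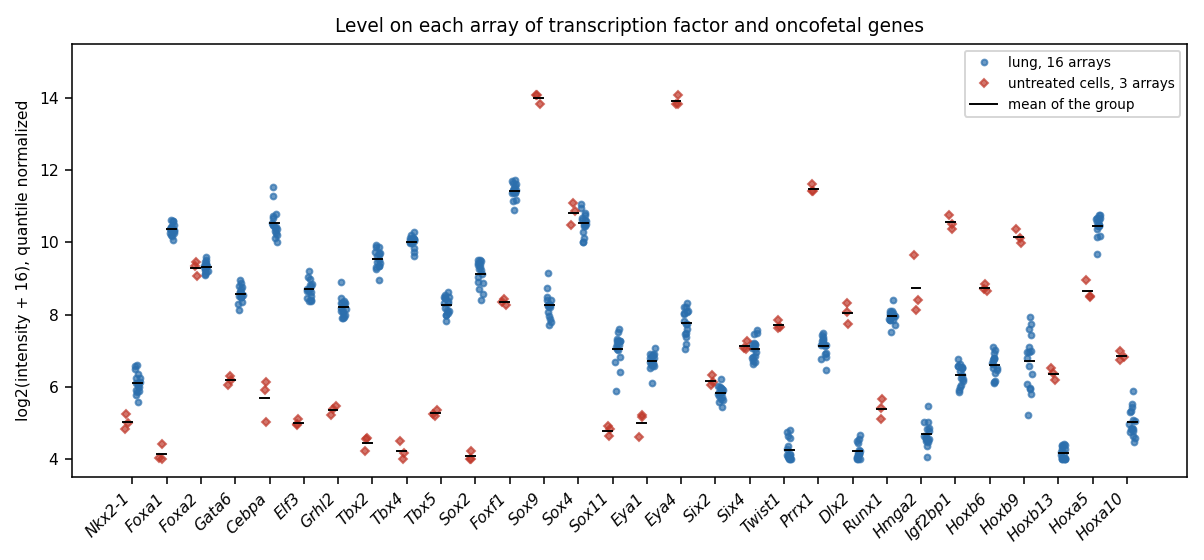
Log2(intensity + 16), quantile normalized, of 30 transcription factor and oncofetal genes, with lung arrays as blue circles (16 per gene), untreated cell arrays as red diamonds (3 per gene) and the mean of each group as a black bar. Foxa1, Cebpa, Tbx4 and Sox2 lie low in the cells, Foxa2, Six4 and Sox4 at about the lung level, and Sox9, Eya4, Prrx1 and Igf2bp1 above every lung array.

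Oncofetal and imprinted growth genes changed in both directions. Hmga2, a chromatin protein of embryonic and tumour cells, read 809.7, 298 and 234 on the untreated arrays, the first of them highest, and 0.794 to 30.4 (median 8.70) in lung. The fetal mRNA-binding protein gene Igf2bp1 read 1859.6, 1441 and 1344 against 43.9 to 99.9 (median 73.1). Both lay above all lung arrays, with changes of 4.05 ± 0.23 (SE) and 4.22 ± 0.16 (SE). Its relative Igf2bp3 (1.71), the growth factor gene Igf2 (2.09) and Lin28a (1.46) also rose, and the adaptor gene Grb10 (-4.64) and the CDK inhibitor gene Cdkn1c (-2.70), both imprinted, were among those that fell. The other 2 tested Grb10 probe sets did not pass. Over this list 5 of 16 rose and 6 fell. The imprinted non-coding transcript Meg3 fell by 3.28 on its chosen probe set and ran from -2.54 to 0.23 on its 9 other tested ones. Of 9 tested cancer-testis genes 4 rose from near background, 2 fell and 3 did not pass. With an adjusted p under 0.01 and a 4-fold change, rises no longer outnumbered falls. Those that rose included Magea4 (52.1, 50.2 and 54.1 against at most 23.3 in lung, and not called with an offset of 64) and the X-linked homeobox gene Rhox5 (1.60).

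Myc was clearly higher in the cells. Most other genes of the transgenes' pathways did not pass, as with most tested genes. Myc read 982, 778 and 771 on the untreated arrays and 30.6 to 119.5 (median 63.6) in lung. Every cell array was thus well above the highest lung array, a change of 3.46 ± 0.22 (SE) (limma adjusted p = 1.33e-12). Transcripts of the transgene and of the endogenous gene cannot be told apart here. Max, the obligate partner of MYC, did not pass (0.64), and the antagonist genes Mga (-1.40) and Mxd1 (-1.22) fell. Braf (-1.18) fell and the MEK2 gene Map2k2 (1.04) rose. In all, 2 of 15 genes of the transgenes' pathways rose, 3 fell and 10 did not pass. Over all tested genes 17.4% rose and 23.6% fell. Mga, Mxd1 and Braf no longer reached 2-fold when the probe sets of a gene were averaged. Downstream of ERK the picture was mixed: 7 of 20 output and feedback genes rose, 3 fell and 10 did not pass. Fosl1, the AP-1 subunit FRA1, read 1301, 655 and 654 against 0.0377 to 13.7 (median 8.26) in lung and rose by 5.20 ± 0.17 (SE). The phosphatase gene Dusp4 (2.69) and the growth factor gene Ereg (2.84) (limma adjusted p = 0.0175) were also called. The Ereg groups overlapped, with lung readings up to 1580.3, and it was not called without the first untreated array (2.52), with male-labelled lung alone (2.38) or with replicate numbers as a block (2.32). The Sprouty inhibitors Spry1 (-3.79) and Spry4 (-2.03) fell while Dusp6 (-0.40) and Spry2 (0.28) did not pass.

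Cdkn2a, which encodes the tumour suppressors p16INK4a and ARF, was all but silent in lung and strong in the cells. It read 1085, 1258 and 449.7 on the untreated arrays, with the third lowest, and 0.00663 to 12.1 (median 5.20) in lung, a change of 5.39 ± 0.22 (SE) (limma adjusted p = 2.75e-16). The probe set is not tied here to 1 of its 2 products. Its neighbour Cdkn2b (-0.88) and the p53 target Cdkn1a (0.33) did not pass. Among cell cycle inhibitors and p53 targets 4 of 19 rose and 3 fell, near the 17.4% higher and 23.6% lower over all tested genes. Rises no longer outnumbered falls without normalization or with an adjusted p under 0.01 and a 4-fold change. Gadd45a (2.21), Zmat3 (1.66) and Ccng1 (1.54) were higher and the death genes Pmaip1 (-3.47) and Fas (-1.23) lower. Of 22 apoptosis regulators 4 rose, near the share over all tested genes, and 8 fell. The mitotic survivin gene Birc5 (4.93) and the BCL2 family gene Bok (2.56) were highest and the BCL2 family gene Bik (-3.31) lowest.

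Genes of DNA replication and mitosis rose with few exceptions, and repair genes in part. Of 30 tested DNA replication genes 28 rose and none fell (median 2.78), of 28 mitosis genes 27 rose and none fell (median 3.46), and of 23 DNA damage and repair genes 14 rose and none fell (median 1.94), beside 17.4% of all tested genes. Cdk1, the kinase that starts mitosis, read 2234, 2269.8 and 2770.2 in the cells and 56.4 to 339.5 (median 93.4) in lung. Dut, which keeps uracil out of DNA, read 4715, 5189 and 4584 against 60.6 to 272 (median 192), and Cdc6, a loader of the replicative helicase, 327, 370.0 and 506 against 9.38 to 29.9 (median 18.0). All 9 untreated readings lay above the highest lung array of their gene, and the changes were 4.31 ± 0.33 (SE), 4.63 ± 0.22 (SE) and 3.71 ± 0.16 (SE) (limma adjusted p = 3.92e-11, 5.07e-15 and 6.41e-16). Birc5 (4.93), Tk1 (4.31), Rrm2 (4.10) and Uhrf1 (4.31) rose by similar amounts. The replication and mitosis members that did not pass were Orc1 (0.76), Pold1 (0.75) and the kinesin gene Kif2c (-0.05). Repair genes tied to replication rose most, for example Rad51ap1 (4.08), Chek1 (4.03) and Brca1 (3.52), while 9 repair genes did not pass, among them the damage kinases Atm (0.61) and Atr (0.36).

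The promoters of these genes are shown because the lists moved together. Windows of 250 bases before the start of each gene were read from RefSeq on build GRCm38.p6 and searched on both strands for the E2F letters TTTCCCGC, TTTCGCGC, TTTGCCGC and TTTGGCGC, the cell cycle homology region TTTGAA, and CCAAT. E2F letters were in 7 of 26 replication promoters (26.9%) against 1.91% of 27025 promoters in the table, and in 1 of 24 mitosis promoters (4.17%). TTTGAA was in 8 of 24 mitosis promoters (33.3%) and 3 of 26 replication promoters (11.5%), against 16.3% of all. CCAAT was in 75.0% of mitosis and 61.5% of replication promoters against 34.5% of all. These and the shares below are from 54 pairs of 9 lists and 6 motifs, the pairs described were picked after the shares were seen, and a match is not a binding site. In the windows of Cdk1 (chr10:69352913-69353162, minus strand) and Cdc6 (chr11:98907901-98908150, plus strand), 5' to 3' along the gene, capitals mark these letters on either strand.
Cdk1: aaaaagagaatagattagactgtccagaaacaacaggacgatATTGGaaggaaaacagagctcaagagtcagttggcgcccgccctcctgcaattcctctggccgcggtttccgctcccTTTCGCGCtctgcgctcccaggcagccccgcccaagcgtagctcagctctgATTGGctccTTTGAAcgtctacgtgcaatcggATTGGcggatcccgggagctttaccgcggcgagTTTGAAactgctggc
Cdc6: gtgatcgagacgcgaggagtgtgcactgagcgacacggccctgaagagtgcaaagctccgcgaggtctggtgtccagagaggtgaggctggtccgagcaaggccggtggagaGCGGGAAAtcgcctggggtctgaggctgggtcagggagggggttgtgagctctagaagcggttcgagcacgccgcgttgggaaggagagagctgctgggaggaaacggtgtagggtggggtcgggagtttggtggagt
The Cdk1 window holds E2F letters from -131 to -124, TTTGAA from -71 to -66 and from -15 to -10 before the start, and 3 CCAAT matches that read ATTGG on this strand. The Cdc6 window holds 1 E2F match, from -138 to -131. The 8 mitosis genes with TTTGAA included 7 that rose, Top2a (4.16) and Ccnb2 (3.99) among them, and Kif2c, which did not pass.

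Genes that supply the protein-making machinery rose too. Ribosome biogenesis genes rose in 24 of 26 with none lower (median 1.79). Nop58, a core protein of the small nucleolar particles that modify ribosomal RNA, read 1168, 869 and 613 in the cells and 36.9 to 176 (median 118) in lung. The change was 3.00 ± 0.28 (SE) and the groups did not overlap. Wdr12 (3.00), Polr1b (2.34) and Nop56 (2.33) had the other large changes, and a cross-hybridizing probe set of Wdr12 was called lower (-1.27). The MYC E-box CACGTG was in 1 of 21 promoters of this list (4.76%), in 3 of 12 tRNA synthetase promoters (25.0%) and in 3 of 15 promoters of the cholesterol list below (20.0%), beside 6.05% of all promoters. Aminoacyl-tRNA synthetase genes rose in 13 of 19 (median 1.41), with the threonyl enzyme gene Tars (2.27) and the glutamyl-prolyl enzyme gene Eprs (2.12) highest. Other Eprs probe sets gave 1.54, called higher, and 0.05 and 0.66, not called. The member that fell was Wars (-1.32), which interferon gamma induces.

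Genes listed for serine and amino acid supply and for the response to the stress factor ATF4 gave some of the larger rises. Whether ATF4 drove them was not tested. Phgdh and Psat1 catalyse the first steps of serine synthesis from glycolysis. Psat1 read 3612, 2945 and 3086 in the cells and 88.9 to 184 (median 113) in lung, and Phgdh 3436, 2819 and 2892 against 166 to 326 (median 247). Trib3, a pseudokinase that ATF4 induces, read 1948, 841 and 1128 against 29.4 to 83.2 (median 48.6). The first untreated array was the highest of the 3 for all these genes, and none of the cell arrays overlapped lung. Changes were 4.62 ± 0.16 (SE), 3.58 ± 0.15 (SE) and 4.29 ± 0.18 (SE) (limma adjusted p = 8.01e-18, 6.19e-16 and 6.15e-16). The amino acid transporter genes Slc7a5 (3.91) and Slc7a11 (2.64), the mitochondrial folate genes Mthfd2 (3.03) and Shmt2 (2.95) and asparagine synthetase Asns (2.35) rose in the same list, in which 17 of 24 rose and none fell (median 2.15). Atf4 itself rose by 1.06, and Nupr1 (-0.02) and Cebpg (-0.75) did not pass. The amino acid response letters TGATGNAA were in 4 of 21 promoters of this list and in 3 of 12 tRNA synthetase promoters (25.0%), against 3.53% of all. They are shown in capitals for Slc7a11 (chr3:50443614-50443863, minus strand) and Tars (chr15:11399659-11399908, minus strand), as the members with the largest rise that hold them.
Slc7a11: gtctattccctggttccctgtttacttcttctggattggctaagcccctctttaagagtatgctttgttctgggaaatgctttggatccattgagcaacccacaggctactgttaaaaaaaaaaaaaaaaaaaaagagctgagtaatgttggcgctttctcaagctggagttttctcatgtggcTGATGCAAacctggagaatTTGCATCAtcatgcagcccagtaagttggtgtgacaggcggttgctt
Tars: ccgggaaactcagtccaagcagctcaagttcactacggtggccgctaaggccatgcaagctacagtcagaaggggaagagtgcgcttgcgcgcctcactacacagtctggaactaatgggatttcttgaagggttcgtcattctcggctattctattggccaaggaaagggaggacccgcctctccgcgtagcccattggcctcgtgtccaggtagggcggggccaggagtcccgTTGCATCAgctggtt
In Slc7a11 the matches are from -66 to -59 and from -47 to -40, on opposite strands, and in Tars from -15 to -8.

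Glycolysis genes rose in part, and respiratory chain genes hardly moved. Of 20 glycolysis and hypoxia genes 10 rose and none fell (median 1.03). Pgam1, phosphoglycerate mutase, read 5215, 5994 and 5702 in the cells and 762 to 1355 (median 1117) in lung, a change of 2.24 ± 0.09 (SE). The hypoxia-inducible genes Egln3 (3.21), Ankrd37 (3.17) and Pdk1 (2.66) rose more, but others of that kind, Car9 (-0.99), Adm (-0.95) and Bnip3 (0.54), did not pass. Of 23 respiratory chain genes 22 did not pass, between -0.50 for Sdhb and 0.96 for Cyc1, and the muscle-type cytochrome oxidase subunit gene Cox7a1 (-2.80) fell. Cholesterol synthesis genes rose in 11 of 18 with none lower (median 1.21). Sqle, squalene epoxidase, read 2459.7, 2283 and 2476 against 411 to 671 (median 575) and rose by 2.02 ± 0.12 (SE). Cyp51 (2.52), Sc5d (2.15) and Hsd17b7 (2.12) rose as much, while the earlier enzyme gene Hmgcs1 did not pass (0.31). CCAAT was in 14 of 15 promoters of this list (93.3%), including those of all 6 members with it that did not pass. Fatty acid and fat storage genes went down instead, with 13 of 22 lower and only the elongase gene Elovl6 (1.70) higher. The fatty acid transporter gene Cd36 read 7.22, 0.00487 and 0.00448 in the cells against 3999 to 5836 (median 4651) in lung.

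Enzymes that clear foreign compounds are abundant in airway cells and were low here. P450 and flavin monooxygenase genes fell in 13 of 17 (median -3.50), for example Fmo2 (-8.07) and Cyp4b1 (-6.88). The exception was Cyp1b1, a P450 of mesenchymal and tumour cells, which read 3941, 5900.3 and 5962 against 133 to 2003 (median 212) and rose by 4.24 ± 0.56 (SE). Antioxidant genes fell in 10 of 24, led by the secreted peroxidase gene Gpx3 (-6.93), the glutathione transferase gene Gsta3 (-5.19) and the epithelial peroxidase gene Gpx2 (-3.50), and the 4 members that rose were Nqo1 (2.58), Srxn1 (1.55), Hmox1 (1.44) and Txnrd1 (1.05). The NRF2 gene Nfe2l2 gave opposite calls on its 2 tested probe sets (-1.75 and 2.74). For prostaglandins, the cyclooxygenase gene Ptgs2 read 3591, 786 and 1240.1, the first array highest, against 125 to 324 (median 181) in lung. The degrading enzyme gene Hpgd read 1.18, 3.34 and 3.42 against 3644 to 6052 (median 5055). Neither overlapped, and the changes were 2.97 ± 0.27 (SE) and -8.02 ± 0.10 (SE) (limma adjusted p = 7.06e-10 and 1.02e-25). The prostaglandin E synthase gene Ptges (1.38) and the receptor gene Ptger4 (2.21) rose and the leukotriene genes Alox5 (-2.28) and Alox5ap (-3.78) fell, in a list of 17 with 5 higher and 8 lower.

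Single matrix and protease genes differed strongly, in both directions. Vcan, the proteoglycan versican, read 3445, 3484 and 3148 in the cells and 45.7 to 191 (median 62.5) in lung and rose by 5.28 ± 0.28 (SE). Of its other 4 tested probe sets 3 were also called higher and 1 lower (-2.80). Postn, periostin, fell instead, at 4.88, 3.16 and 17.2 in the cells and 2335 to 3685 (median 2953) in lung, a change of -6.94. Fibronectin Fn1 (1.68) and the collagen genes Col5a1 (1.52) and Col1a1 (1.16) rose, while elastin Eln (-4.72) and the basement membrane genes Col4a3 (-5.21), Lama3 (-4.35), Lama2 (-3.80), Col4a1 (-2.41) and Col4a2 (-2.51) fell. Collagen and matrix genes counted 4 higher, 9 lower and 15 not passing of 28, beside 17.4% higher and 23.6% lower over all tested genes. Their summed levels overlapped, at 48142 to 56107 in the cells and 50014 to 63032 in lung. Matrix proteases and inhibitors counted 5 higher and 8 lower of 25. Plau, the urokinase that activates plasminogen, read 3736, 4399.8 and 5829 against 18.7 to 44.5 (median 32.7) (change 6.57 ± 0.15 (SE)), but its other tested probe set was level between the groups (0.17). The inhibitor gene Timp1 (3.42) and the metalloproteinase genes Mmp10 (2.53) and Mmp13 (2.33) rose, and the epithelial membrane protease gene St14 (-3.96) and its inhibitors Spint1 (-3.50) and Spint2 (-7.13) fell. Integrin genes fell in 11 of 19, with Itga8 (-7.05) lowest, and Itgb3 (2.18) and Itgb8 (1.35) rose.

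Signalling genes changed in both directions. Grem1, a secreted antagonist of BMPs, read 1637, 1043 and 514 on the untreated arrays, the third lowest, and 0.00852 to 17.5 (median 4.18) in lung, where many readings lay near the floor. The BMP genes Bmp6 (-5.96) and Bmp5 (-5.45) and the endothelial receptor gene Acvrl1 (-4.47) fell, the antagonist genes Chrd (1.72) and Fst (1.26) rose, and Bmp4 (0.29) did not pass. TGF-beta and BMP genes totalled 7 higher and 11 lower of 30. Wnt and Notch genes fell in 16 of 33 and rose in 6: the non-canonical ligand gene Wnt5a (2.62) and the Wnt antagonist gene Sfrp1 (2.57) rose, and the feedback gene Axin2 (-2.95) and the Notch genes Notch4 (-4.49), Dll1 (-4.19) and Notch1 (-2.15) fell. The other tested probe sets of Axin2 (-0.69) and Notch4 (-0.44) did not pass. Growth factor receptors and ligands fell in 16 of 31, most for Fgf1 (-6.89), Kit (-4.82) and Erbb3 (-4.20). Met (-0.02) and Erbb2 (-0.72) did not pass. Egfr rose by 1.78 on the chosen probe set, while its 6 other tested sets ran from -2.28 to 1.74.

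Inflammatory signals formed a contrast of their own. Ccl2, which attracts monocytes, read 5849.6, 3012 and 2079 on the untreated arrays and 4.93 to 35.6 (median 17.6) in lung. Its neighbour in function and locus Ccl7 read 3599.7, 2313 and 1315 against 9.65 to 45.7 (median 25.7). For both genes the first untreated array was highest and the third lowest, and all 3 stood above lung. The changes were 6.65 ± 0.26 (SE) and 5.80 ± 0.24 (SE) (limma adjusted p = 1.3e-16 and 3.07e-16). The neutrophil attractant gene Cxcl1 (4.23), the cytokine genes Il6 (3.98) and Lif (3.00), the stromal chemokine gene Cxcl12 (2.19) and Mif (2.42) rose too. The deepest falls of this list were Ccl6 (-7.42), a chemokine of myeloid cells, and Ccl5 (-5.70), one of T cells, and Tnf (0.77) did not pass. Chemokine and cytokine genes amounted to 11 higher and 16 lower of 36. The kappaB motif (GGG, any 2 bases, TTTCC) was in 7 of 28 promoters of this list (25.0%) against 1.40% of all. Of those 7 genes Cxcl1, Il6, Cxcl2 (1.42) and Csf1 (1.37) rose, Ccl9 (-1.42) fell and Ccl20 (-0.12) and Cxcl3 (-0.64) did not pass. The Cxcl1 window (chr5:90890995-90891244, plus strand) is printed as the member with the largest rise that holds it.
Cxcl1: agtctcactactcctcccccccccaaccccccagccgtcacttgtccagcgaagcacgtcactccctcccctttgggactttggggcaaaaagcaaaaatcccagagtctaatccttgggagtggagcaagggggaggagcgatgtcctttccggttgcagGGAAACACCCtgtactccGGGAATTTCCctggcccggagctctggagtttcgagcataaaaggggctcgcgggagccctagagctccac
The capitals are 2 matches, from -89 to -80 on the opposite strand and from -71 to -62.

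Interferon and antigen presentation genes were low in the same cells. None of 20 interferon-stimulated genes rose and 16 fell (median -3.40). Rtp4 read 5.30, 0.309 and 6.19 in the cells and 587 to 1141 (median 984) in lung, and the antiviral gene Oasl2 12.5, 5.06 and 0.0276 against 258 to 843 (median 564). Both lay below every lung array, at -5.48 ± 0.17 (SE) and -4.60 ± 0.21 (SE). Mx1 (-0.33), Ifit2 (-0.51) and Stat2 (-0.92) did not pass. The MHC class II genes H2-Ab1 (-7.79) and H2-Aa (-7.74) and their chaperone gene Cd74 (-6.86) fell within a list of 10 with 7 lower and none higher. The immunoproteasome genes Psmb9 (-4.14), Psmb8 (-4.11) and Psmb10 (-1.38) fell, while the standard catalytic subunit gene Psmb5 (1.03) rose and Psmb7 (-1.13) fell. Complement and innate defence genes fell in 16 of 21, for example the complement inhibitor gene Serping1 (-6.66) and the antibody transporter gene Pigr (-5.70).

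Genes tied to the dye assay and to stem cells did not move as 1 group. Abcg2, whose product exports Hoechst dye, read 171, 228 and 246 in the cells and 139 to 259 (median 184) in lung, overlapping ranges with a change of 0.42 that did not reach 2-fold. Abcb1b, a P-glycoprotein gene of multidrug resistance, read 495, 452 and 419.6 against 21.6 to 57.1 (median 36.8), without overlap, a change of 3.29 ± 0.14 (SE) (limma adjusted p = 8.68e-16). Its paralogue Abcb1a (-1.35) fell, and values of this near-identical pair are uncertain. The efflux genes Abcc4 (2.40) and Abcc1 (1.86) rose and the lipid transporter genes Abcg1 (-5.27) and Abca8a (-5.15) fell, for 3 higher and 6 lower of 13. Stem cell surface and aldehyde dehydrogenase genes fell in 11 of 19: Aldh1a1 (-7.70), Alcam (-7.51), Aldh1a7 (-6.62) and the CD133 gene Prom1 (-5.32) were lowest, Aldh1a3 (3.30), Procr (2.66) and the Wnt target gene Lgr5 (2.04) rose, and Cd44 (0.63) and Cd24a (-0.24) did not pass. Lung ion and water transport genes fell in 15 of 19 (median -4.10), including all 3 epithelial sodium channel subunits, Scnn1g (-6.04), Scnn1a (-5.64) and Scnn1b (-4.96).

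Neural genes, chromatin regulators and rhythm genes were also mixed. Over all tested genes 17.4% rose and 23.6% fell, and the shares of the neural and the clock and immediate early lists lay near these. Chl1, an adhesion molecule of neurons, read 1648, 3209 and 1832 in the cells and 0.0133 to 38.0 (median 14.4) in lung, a change of 6.10 ± 0.25 (SE). Tubb3 (3.54) and Ncam1 (1.68) rose, Stmn2 (-5.21) and L1cam (-2.15) fell, and the neural list held 5 higher and 7 lower of 23. Of 20 chromatin genes 6 rose and 5 fell. Rises no longer outnumbered falls without normalization, with an offset of 1 or with an adjusted p under 0.01 and a 4-fold change. The replication-linked genes Hells (4.14), Dnmt1 (1.63) and Ezh2 (1.88) rose and Ezh1 (-2.65) and Cbx7 (-2.87) fell. Probe sets of Cbx7 gave opposite calls (1.68 and -1.49 besides the chosen one), and the other 2 of Ezh1 did not pass. Proteasome and chaperone genes rose in 8 of 27, with the mitochondrial chaperone gene Hspa9 (1.79) highest. Among clock and immediate early genes 4 of 28 rose, with Fosb (4.21) and Atf3 (2.46) highest, and 8 fell, with the shear-responsive factor gene Klf2 (-4.14) lowest. Fos (-0.18) and Jun (-0.08) did not pass.

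**Figure D4:**
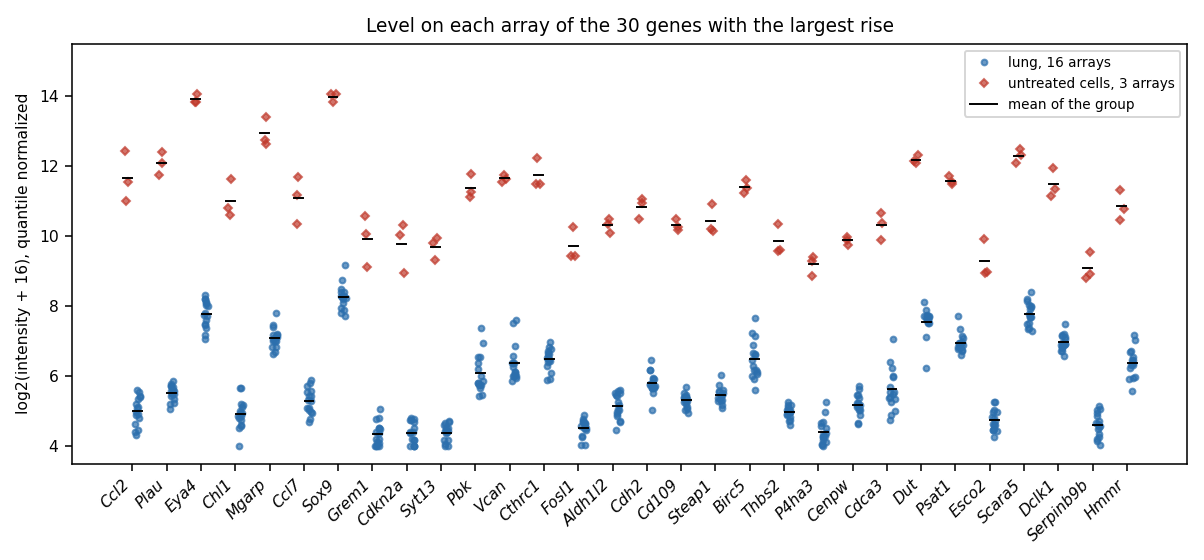
Log2(intensity + 16), quantile normalized, of the 30 genes that rose most, each called and without overlap between groups, with lung arrays as blue circles (16 per gene), untreated cell arrays as red diamonds (3 per gene) and the mean of each group as a black bar. Ccl2, Plau and Eya4 have the largest changes (6.65, 6.57 and 6.13), and the untreated arrays of Ccl2, Ccl7, Grem1 and Cdkn2a are spread more widely than those of Dut, Psat1 or Vcan.

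Several of the largest rises belong to no list. Mgarp, a mitochondrial protein of steroid-forming and retinal cells, read 6904, 12483 and 7811 against 80.4 to 219 (median 129.8), the second array highest, a change of 5.85 ± 0.18 (SE). Cthrc1, a secreted protein of remodelling matrix, read 3115, 4897 and 3018 against 42.5 to 123 (median 79.9) (5.26). Cd109, a surface protein that binds TGF-beta, read 1298, 1418 and 1152 against 14.9 to 36.5 (median 25.5) (5.01). No cell array overlapped lung for these genes. The mitochondrial folate enzyme gene Aldh1l2 (5.17), the metalloreductase family gene Steap1 (4.98), thrombospondin 2 Thbs2 (4.89), the ferritin receptor gene Scara5 (4.52) and the kinase gene Dclk1 (4.51) rose by comparable amounts, and a second Scara5 probe set did not reach 2-fold (0.96). Others belong to division, such as the mitotic kinase gene Pbk (5.31), the centromere gene Cenpw (4.70) and the cohesin acetyltransferase gene Esco2 (4.54). Among the largest falls outside the lists were Wfdc2 (-8.51) of airway secretions, the cathepsin gene Ctss (-8.05) of myeloid cells, Sparcl1 (-7.77) and the complement C5 gene Hc (-7.57).

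The 3 untreated preparations were close to each other for most genes. The median SD over the untreated arrays was 0.159 on the log2 scale, against 0.204 over the 16 lung arrays, and 82 genes, 43 of them called, had an SD over 1 among the untreated arrays. Probe sets of 1 gene often disagreed. Of 6380 genes with several tested probe sets, 8.81% had all of them called higher, 8.90% all lower and 37.0% none called, while in 41.8% only some were called and in 3.42% sets were called in opposite directions. A call on 1 probe set is therefore a statement on the transcripts that set detects. Besides the genes for which this is given above, no other tested probe set was called for Abcb1a, Ccl9, Col5a1, Fst, Hoxb3, L1cam, Lama3, Lif, Mga, Spry4, Tcf21 and Zeb1. Among the 238 genes named by rule, 234 were called. The exact permutation test of 3 against 16 arrays gave its smallest possible two-sided p, 0.00103, for 234. These are not all the same genes: Actb had that p without a call, and Ereg was called with a permutation p of 0.0258. The rule picked genes with large changes, most of them without overlap. The permutation p was thus largely set by that choice and is no separate support.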

How the data were processed

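RNA (200 ng per sample) was labelled with a 3' IVT Express kit and hybridized to Affymetrix arrays, per the labels' protocols. The deposited values are linear intensities made with PLIER, per the submitters' processing notes, with version, scaling and background steps not given in the sources used here. Intensities were transformed as log2(intensity + 16) and quantile normalized over 22 arrays. Probe sets above the 40th percentile of an array on at least 3 of 19 arrays were tested with limma 3.58.1 (trend, R 4.3.3; Python 3.11.15, pandas 2.3.3), 3 untreated against 16 lung arrays, with Benjamini-Hochberg adjustment over all of them; a call needed an adjusted p under 0.05 and a 2-fold change. The offset understates changes of dim genes.

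A single gene symbol was listed for 34945 probe sets, several for 932 and none for 9160. A gene was read from the set with the highest mean over 22 arrays, avoiding cross-hybridizing sets. Of 1164 gene names in 57 lists 1071 had a probe set, and 1031 were tested. Some genes are not reported here. Precision is limited by the number of arrays.

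The members, lists and tests were chosen with earlier results of these data known. Genes were named by rule: the 30 largest rises and the 30 largest falls among called genes without overlap (predicted genes left out), up to 4 called members with the largest change in each list, and check genes, among them Myc, Epcam, Abcg2, Xist, Uty and Actb. Alternatives changed the normalization, offset, filter, probe set rule, variance model, lung arrays, pairing, threshold and untreated arrays used. Those that leave out arrays keep the tested probe sets of the full comparison. Outlying arrays were sought on log2 values of the deposited intensities, with the same offset and without quantile normalization. Both were decided after first values were seen. The code was tested on simulated data.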

Additional observations from a re-analysis of the deposited data

Results flagged for a closer look

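Dixon's test was applied to log2 values of the deposited intensities, with the offset used above and without quantile normalization. Single lung arrays that stood apart from the other 7 of their labelled group were found for 29 of 476 groups of 8 (6.09%), where chance gives about 1 in 20. The readings printed below are linear intensities. No explanation was tested for any of them.

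The array labelled male 4 held 7 of these readings, 6 of them the lowest: the vessel and stroma genes Notch4 (472), Kit (619), Itga8 (1939.7) and Limch1 (3468), the interferon-induced gene Iigp1 (513) and the red cell gene Slc4a1 (52.4), while the homeobox gene Dlx2 was highest at 7.65, below the background percentile. Male 3 was lowest for the fat cell hormone gene Adipoq (76.2, against 304 to 952 on the other arrays) and for the airway secretory gene Bpifa1 (1259, against 5764 to 9033). Male 2 was lowest for Dut (60.6), Eprs (348) and Sc5d (199.7) and highest for Sox9 (478), and male 5 was lowest for Plau (20.8).

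Among female-labelled lungs, array 1 was highest for Ereg (256, against 8.39 to 17.2 on the others), Meg3 (595, against 118 to 190.3) and Spint2 (3115), and lowest for Gzma (821) and Igtp (607). Array 2 was highest for Iigp1 (1217) and the MHC class II genes H2-Ab1 (5389) and H2-Eb1 (5565), and lowest for Spry1 (1027). Array 3 was highest for the red cell genes Alas2 (2998) and Slc4a1 (309) and lowest for Sqle (429). Array 8 was lowest for Brca1 (10.5) and Trib3 (29.4), and array 6 for Cyp2f2 (7647). All these differences are within lung, and no untreated reading was part of them.

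Poly-A control transcripts, which are no part of the comparison, read higher on every untreated array than on any lung array: the lowest untreated reading was 551 for Dap-3, 9355 for Thr-3 and 1595 for Phe-M, against at most 2.72, 94.7 and 24.0 in lung. What this means for the labelling of the 2 groups was not tested.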

How the results depend on the processing

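Of 4991 values of the 238 named genes under the alternatives, 4966 kept their direction and their side of the threshold, 16 lost and 4 gained a call, and 5 changed sign. The sign changed for Actb, which was not called in the comparison reported, under median centring (0.11) and as the mean of its probe sets (1.56), for Meg3 (0.20) and Slc4a1 (0.79) with the probe set chosen by equally weighted group means, and for Uty against female-labelled lung alone (0.26). Calls were lost with an offset of 64 for 8 genes, with averaged probe sets for 5, and for Ereg in 3 settings given above. The causes were not tested. Counts of calls moved most with the threshold: the adjusted p alone called 14561 probe sets higher and 11653 lower (6195 and 6205 genes), and an adjusted p under 0.01 with a 4-fold change 1574 and 3036 (732 and 1869 genes, and 155 list members higher). An offset of 64 called 3745 probe sets higher and 4229 lower. Normalization shifted the median of all genes from 0.01 to -0.15 (none) or 0.12 (median centring), so changes near 2-fold depend on it. Leaving out 1 untreated array at a time gave 6448 to 6665 probe sets higher and 6337 to 6501 lower, 2620 to 2715 genes higher and 3567 to 3604 lower, and 265 to 272 list members higher and 429 to 437 lower. The replicate numbers do not pair samples, since deviations of same-numbered samples correlated at -0.06 to 0.20, and fitting them as a replicate block gave 2700 genes higher and 3585 lower (6619 and 6435 probe sets), with Ereg not called. Of the 57 lists, 12 had another majority direction under at least 1 of 23 alternatives, all of them lists with members called in both directions or with only 1 call. Dim transcripts, within a few times the 40th percentile, have understated changes.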
